A study of Mus musculus with 27 samples.

Results

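This account follows 10 genes that set entry into S phase in mouse cells: the cyclins Ccnd1, Ccnd2, Ccnd3, Ccne1 and Ccne2, the kinases Cdk4 and Cdk6, and the inhibitors Cdkn1b, Cdkn2a and Cdkn2c. They were taken by name, and all 10 are among the 25209 genes of each of the 8 deposited tables. The cells were mouse embryonic stem cells of the V6.5 line, either wild type (WT) or from the homozygous Zfp512b knockout clones KO4 and KO8. In the clones a transcriptional terminator follows the third exon of Zfp512b, together with an mCherry or a puromycin resistance gene used for selection. Each genotype was sequenced as naive cells on day 0 (3 libraries each), kept in LIF with inhibitors of MEK and GSK3, as primed cells on day 2, and after embryoid body culture as cardiomyocyte (CM) cultures with vitamin C on day 7.5 and as neural progenitor (NPC) cultures with retinoic acid on day 10 (2 libraries each). KO4 and KO8 are single clones out of a larger set. Per the study they were picked because their proliferation was raised the least, so the choice was made on growth. The WT cells did not go through the same editing and selection. An effect of the knockout and an effect of cloning therefore cannot be told apart beyond what both clones share.

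D-type cyclins bind Cdk4 and Cdk6 and start the phosphorylation of the retinoblastoma protein, which holds back the E2F factors. E-type cyclins then drive Cdk2 and complete that step. Cdkn2a and Cdkn2c belong to the INK4 inhibitors, which bind Cdk4 and Cdk6, and Cdkn1b (p27) acts mainly on cyclin E with Cdk2. Embryonic stem cells are known for a short G1 phase and high cyclin E, and differentiation lengthens G1.

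The tables hold a base mean, the average of the normalised counts over the WT and KO libraries of a stage, but no count for each library. Since a base mean is a sum of whole counts, each divided by a size factor that is the same for every gene, the counts could be solved for genes of low and moderate level. Of the 40 pairs of a gene and a stage, 14 gave exactly 1 solution, 4 gave several and 22 lay at levels too high to be solved. Tests of the clones against WT were possible for 6 of the 10 genes in primed cells, 3 in NPC cultures and 4 in CM cultures. The abundant genes (Ccnd1, Ccnd3, Ccne1 and Cdk4 in most stages) are given by their base means, which combine genotypes. No test of the clones was made in naive cells, where 12.1% of the expressed genes could be solved. The sources do not say that replicates were separate cultures, so the p-values measure only the spread between these libraries, which may be technical. The share of all genes whose groups do not overlap was not counted. Statements on overlap therefore describe the libraries only and are no evidence of a difference. Genes without a called difference show it too, such as Ccne2 in NPC cultures of KO4 (log2 fold change -0.10).

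Library totals, estimated from the size factors, lay between 15.1 and 39.7 megareads. The targeted gene was lower in the clones wherever it could be solved: in primed cells Zfp512b had 929 and 977 normalised counts in WT, 191 and 219 in KO4 and 184 and 154 in KO8, and in CM cultures 1118 and 1060, 184 and 209, and 155 and 173. It was not solved in naive and NPC libraries, so the labels were not checked there. Markers went against the cell type in the label of the CM cultures of KO4. Per the study, neither clone properly formed beating cardiomyocytes, and the genes lowered in both were enriched for muscle terms. The solved cardiomyocyte markers (Actn2, Nkx2-5 and Ryr2, 3 of the 7 listed) summed to between 3633 and 4126 normalised counts in WT, between 3152 and 3332 in KO8 and between 74.9 and 84.1 in KO4. The neural markers Pax6, Sox1, Tubb3 and Neurog2 summed to between 617 and 832 in WT, between 520.2 and 571 in KO8 and between 8789 and 8810 in KO4. In addition, all 4 fibroblast and smooth muscle markers, which were not solved, had a higher base mean in the KO8 table than in the KO4 table. In bulk RNA, fewer cells of a type and less RNA per cell cannot be told apart.

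First, the level of each gene was followed over the 4 stages, as base mean in parts per 1000000 (ppm) of the summed base mean of its table, averaged over the KO4 and KO8 tables. These levels pool genotypes, and the stages were normalised separately and, being separate cultures, cannot be told apart from any batch. Ccnd2 spanned by far the widest range. Its level was 0.184 ppm in naive cells, 11.7 in primed cells, 351 in NPC cultures and 330 in CM cultures, a 1907-fold range. Ccne1 moved the other way after priming, with 193 ppm in naive cells, 412 in primed cells, 55.8 in NPC cultures and 73.6 in CM cultures. Ccnd1 had the same order of stages as Ccne1, at 150, 201, 55.2 and 102 ppm.

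Ccnd3 (243 to 277 ppm) and Cdk4 (453 to 506) moved least, by 1.14-fold and 1.12-fold. Cdk6 stayed between 41.5 and 61.2 ppm and Ccne2 between 11.1 and 15.4. Such narrow ranges depend on the scale: with size factors computed over the 18 primed, NPC and CM libraries, the NPC to primed ratio of Ccne2 was 0.704 instead of 1.103, and the 6 ratios that could be compared moved by up to 1.57-fold. Cdkn1b was lowest in primed cells (26.4 ppm) and highest in NPC cultures (94.8). Cdkn2c was also lowest in primed cells (1.252) and highest in NPC cultures (7.90). Cdkn2a was highest in naive cells (20.3), with 12.0 in primed cells, 11.4 in NPC cultures and 9.61 in CM cultures.

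Between genes, levels were compared per kilobase of the longest transcript. Cdk4 ranked first at every stage, with 221 to 246 ppm per kilobase, 15.0 to 21.9 times the level of Cdk6. In primed cells Ccne1 (206) stood next to Cdk4 (221), and their order turned when the union of exons was used as length, which gave 155 for Ccne1 and 140 for Cdk4. Ccnd3 made up the largest share of the 3 D cyclins at every stage, from 60.6% in CM cultures to 76.0% in naive cells. The share of Ccnd2 was 0.0193% in naive cells, 1.198% in primed cells, 30.5% in NPC cultures and 26.8% in CM cultures. Over the same stages the share of Ccnd1 was 24.0%, 31.5%, 7.31% and 12.6%. Ccne1 exceeded Ccne2 23.2-fold in naive cells, 55.6-fold in primed cells and about 7-fold after differentiation (6.84 in NPC and 7.18 in CM cultures). The base means have no replicate spread. The KO4 and KO8 tables of a stage differed most for Ccnd1 and Ccne1 in CM cultures, where Ccne1 spanned 27.7 to 45.9 and Ccnd1 20.4 to 34.1, so that the values of these neighbours in the order crossed between tables although Ccne1 was the higher in each.

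**Figure D1:**
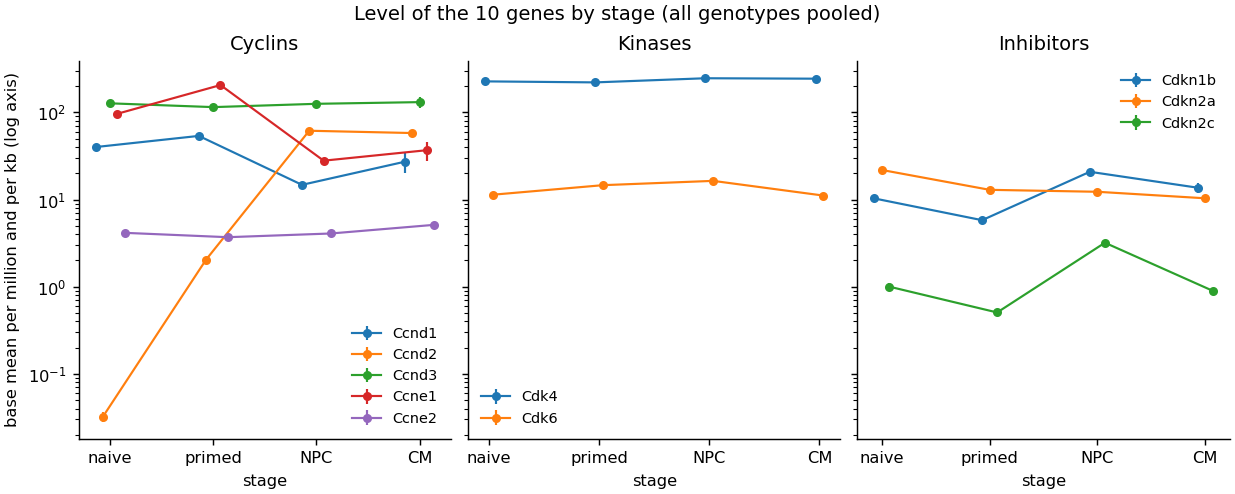
Level of the 10 genes by stage, as base mean in ppm and per kilobase on a log axis, with points at the mean of the KO4 and KO8 tables and bars that span both tables. Ccnd2 rises from 0.0323 in naive cells to 61.6 in NPC cultures, whereas Cdk4 lies between 221 and 246.

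In the WT libraries alone, stages could be compared for the 3 genes solved in primed, NPC and CM libraries alike (limma fit over 18 libraries in 9 groups, all 8643 shared genes). Cdkn2c, which encodes p18Ink4c, was higher in NPC than in primed WT cells by 1.64 ± 0.30 on the log2 scale (SE, adjusted p = 8.81e-05) and higher than in CM cultures by 1.69 ± 0.28 (adjusted p = 5.71e-05). Cdkn2a was lower in NPC than in primed WT cells (-0.83 ± 0.22, adjusted p = 0.00276) and than in CM WT cultures (-1.01 ± 0.21, adjusted p = 0.000476), so that the order of NPC and CM in the pooled levels of Cdkn2a is turned round in WT alone. Ccne2 was higher in CM than in primed WT cells by 0.43 ± 0.17 (adjusted p = 0.0309) and lower in NPC than in CM WT cultures (-0.41 ± 0.16, adjusted p = 0.0316). Stage differences were common among all genes: 76.3% were called between NPC and primed, 73.3% between CM and primed and 57.4% between NPC and CM WT libraries. The median gene was 0.14 higher in NPC and 0.13 higher in CM than in primed WT cells. Both Ccne2 calls depended on the scaling, since with upper-quartile scaling its differences were 0.08 (adjusted p = 0.691) and -0.29 (adjusted p = 0.12). They were also lost without single WT libraries: CM over primed without the lower primed one (0.21, adjusted p = 0.35) or the higher CM one (0.31, adjusted p = 0.176), and NPC against CM without either NPC one (adjusted p = 0.107 and 0.0945) or the higher CM one (adjusted p = 0.207).

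Next, each clone was compared with WT in primed cells, shortly after the cells leave the naive state. Ccnd2 fell in both clones, while Ccne2 and Cdkn2a rose in both. Cdk6, Cdkn1b and Cdkn2c did not pass the test in either clone. Of all genes tested, 20% were called in KO4, 16.4% in KO8, and 10.7% in both clones in the same direction, against 3 of the 6 tested members in both clones. Markers of cell state also moved in both clones. The naive markers Tbx3 (-0.59 in KO4 and -0.67 in KO8) and Prdm14 (-0.63 and -0.71) and the primed markers Otx2 (-0.65 and -0.42) and Lef1 (-1.21 and -0.64) were called lower, and the neural marker Sox1 higher (1.296 and 0.84), on the log2 scale. Their part in the differences of the members was not tested.

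Ccnd2, the D cyclin that appears as cells leave the naive state, lies on the minus strand at chr6:127075797-127101066 (mm9). It had 306 and 268 normalised counts in the WT libraries, 86.5 and 96.4 in KO4, and 150 and 127 in KO8. All 4 KO libraries lay below both WT libraries. Its log2 fold change was -1.65 ± 0.175 in KO4 (SE, limma, adjusted p = 1.70e-11) and -1.05 ± 0.15 in KO8 (adjusted p = 4.84e-09), so that KO4 held 0.319 and KO8 0.484 of the WT level. In naive cells the same gene was close to 0, at 0 to 11.5 normalised counts in WT, 7.11 to 12.7 in KO4 and 1.98 to 10.5 in KO8, and was not tested.

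Ccne2, an E-type cyclin at chr4:11118498-11131926 on the plus strand, had 175 and 129 normalised counts in WT, 228 and 199 in KO4, and 233 and 268 in KO8. Every KO library was above both WT libraries. The log2 fold change was 0.50 ± 0.16 in KO4 (adjusted p = 0.0174) and 0.72 ± 0.15 in KO8 (adjusted p = 8.18e-05). The call in KO4 rested on single libraries, because without the lower WT library the difference was 0.28 (adjusted p = 0.362) and without the higher KO4 library 0.40 (adjusted p = 0.157).

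Cdkn2a, whose locus at chr4:88920377-88940557 on the minus strand encodes p16Ink4a and p19Arf from separate starts, had 163 and 182 normalised counts in WT, 229 and 226 in KO4, and 264 and 249 in KO8. Again the KO libraries did not overlap the WT libraries. It was higher by 0.40 ± 0.15 in KO4 (adjusted p = 0.0424) and by 0.58 ± 0.15 in KO8 (adjusted p = 0.00138). The KO4 call was lost when any of its 4 libraries was left out (adjusted p between 0.0831 and 0.272), and the KO8 call without the lower WT library (adjusted p = 0.0501). Counts per gene do not separate the p16Ink4a and p19Arf transcripts.

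The other 3 tested genes showed no called difference. That the libraries of Cdk6 in both clones and of Cdkn2c in KO4 did not overlap WT is no evidence of one. Cdk6, the less abundant of the kinases, had 914 and 960 normalised counts in WT, 1063 and 967 in KO4, and 862 and 896 in KO8. Its 95% intervals of the log2 fold change reached from -0.03 to 0.26 in KO4 and from -0.24 to 0.05 in KO8. Cdkn1b had 443 and 506 in WT, 451 and 424 in KO4, and 424 and 448 in KO8, with intervals from -0.31 to 0.09 and from -0.32 to 0.08. Cdkn2c had few reads, with 22.8 and 24.0 normalised counts in WT, 17.3 and 17.4 in KO4, and 25.2 and 19.4 in KO8, so its intervals were wide (-1.29 to 0.46 and -0.90 to 0.78).

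The clones were also compared with each other in primed cells. None of the 6 members was called, where 3.34% of all genes were. The largest difference was that of Ccnd2, lower in KO4 than in KO8 by 0.60 on the log2 scale (-0.60 ± 0.20, adjusted p = 0.0806), with a 95% interval from -0.996 to -0.20. The base means of the abundant Ccnd1, Ccnd3, Ccne1 and Cdk4 lay close in the KO4 and KO8 tables, widest apart for Ccnd3 (4235 and 4143).

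**Figure D2:**
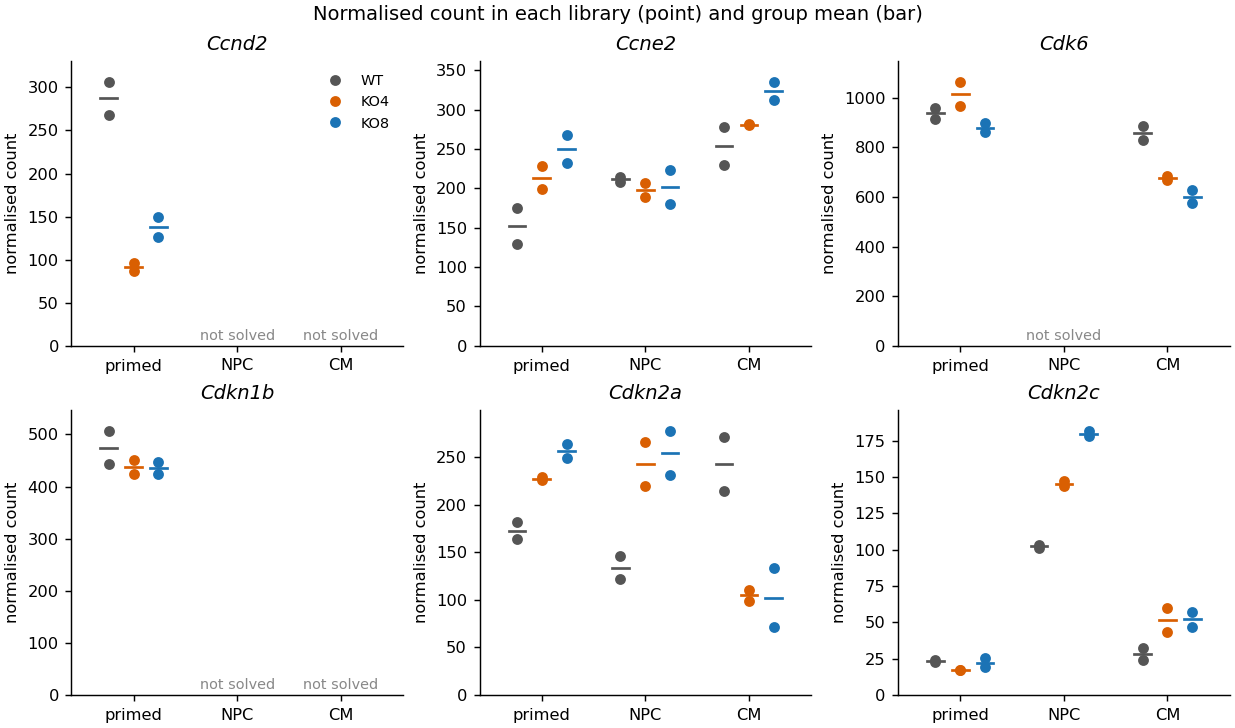
Normalised count of the 6 genes solved in at least 1 of the primed, NPC and CM stages, with a point for each library and a bar at the mean of each group (WT, KO4, KO8). In Cdkn2a the KO libraries lie above WT in primed and NPC and below WT in CM cultures.

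In NPC cultures, 3 members could be tested. Cdkn2a rose in KO4, whereas its similar difference in KO8 did not pass the test. Over all genes 17.7% were called in KO4, 2.8% in KO8 and 2.46% in both clones in the same direction. The KO8 libraries spread more than the others, with a coefficient of variation between replicates of 0.149 for moderately expressed genes, against 0.0792 in WT and 0.0601 in KO4. In simulated NPC data a log2 change of 1 was found for 94.1% of the tested changed genes in KO4 and 55.3% in KO8, and a change of 0.5 for 34.1% and 1.18%. Only 100 genes were changed at each size, fewer than were called in the data. These shares therefore do not give the power of the real tests.

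Cdkn2a had 146 and 122 normalised counts in WT, 266 and 220 in KO4, and 277 and 231 in KO8. In both clones the libraries were above WT. The log2 fold change was 0.86 ± 0.18 in KO4 (adjusted p = 0.000905) and 0.92 ± 0.21 in KO8 (adjusted p = 0.0698). With all 3 genotypes in 1 fit the sides changed, with adjusted p = 0.0536 in KO4 and 0.0297 in KO8. Without single libraries the KO8 difference ranged from 0.79 to 1.05, and its call depended on the library left out.

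Cdkn2c lies at chr4:109333481-109339794 on the minus strand. It had 101 and 103 normalised counts in WT, 144 and 147 in KO4, and 178 and 182 in KO8. The libraries of each clone lay above WT. Neither clone passed the test, at 0.51 ± 0.20 (adjusted p = 0.0924) and 0.81 ± 0.21 (adjusted p = 0.0916). Without single libraries the KO8 difference of Cdkn2c ranged from 0.80 to 0.82, and its call depended on the library left out. Ccne2 had 215 and 209 in WT, 207 and 189 in KO4, and 223 and 181 in KO8, with log2 fold changes of -0.10 ± 0.16 and -0.07 ± 0.19 and 95% intervals from -0.43 to 0.24 and from -0.52 to 0.37.

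Between the clones no member was called in NPC cultures. Of the 9519 genes tested there limma voom called 0 (0%), although 1210 had an unadjusted p under 0.05, and limma on log2(normalised count + 1) called 18. Ccnd1, Ccne1 and Cdk6 each had several possible sets of counts (2, 5 and 6), which disagreed for each gene on the direction against WT, so no fold change is given. For Ccnd1 the base means of the tables differed by 1.03-fold. The neural markers Pax6, Sox1 and Neurog2 summed to between 253 and 373 in WT, 687 and 850.1 in KO4, and 546 and 1159 in KO8 in these cultures, and the smooth muscle and fibroblast markers Acta2 and Postn to between 1033 and 1306, 361 and 395, and 625 and 772. The part of these cell types in the differences was not tested.

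In CM cultures Cdkn2a and Cdk6 fell in both clones. The share of all genes called was 53% in KO4, 25.3% in KO8 and 12.4% in both clones in the same direction, against 2 of the 4 tested members in both. Cdkn2a had 271 and 215 normalised counts in WT, 111 and 98.8 in KO4, and 71.4 and 133 in KO8. All KO libraries lay below the WT libraries, and those of KO4 and KO8 overlapped. The log2 fold change was -1.20 ± 0.21 in KO4 (adjusted p = 0.000676) and -1.33 ± 0.26 in KO8 (adjusted p = 0.00348). The size in KO8 depended on its lower library, without which it was -0.86 (adjusted p = 0.0488).

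Cdk6 (chr5:3343893-3523218, plus strand) had 886 and 832 normalised counts in WT, 669 and 685 in KO4, and 576 and 627 in KO8. Groups did not overlap. The change was smaller than that of Cdkn2a, at -0.34 ± 0.09 in KO4 (adjusted p = 0.00943) and -0.52 ± 0.10 in KO8 (adjusted p = 0.00304). With upper-quartile scaling the KO4 difference was no longer called (-0.22, adjusted p = 0.0679). It was also lost without either KO4 library (adjusted p = 0.102 and 0.0695), and the KO8 call without the lower KO8 library (adjusted p = 0.0669).

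Cdkn2c and Ccne2 did not pass the test. Cdkn2c had 24.2 and 32.5 normalised counts in WT, 59.5 and 43.1 in KO4, and 46.9 and 57.4 in KO8, all KO libraries above WT, with 0.85 ± 0.38 (adjusted p = 0.0783) and 0.87 ± 0.35 (adjusted p = 0.0919). With upper-quartile scaling the KO4 difference was called (adjusted p = 0.0472). Ccne2 had 229 and 278 in WT, 281 and 281 in KO4, and 313 and 335 in KO8, with 0.16 ± 0.15 (adjusted p = 0.408) and 0.36 ± 0.15 (adjusted p = 0.0962), the latter called without the higher WT library (0.49, adjusted p = 0.0175). Of the solved cardiac markers 3 of 3 were called lower in KO4 and 1 of 3 in KO8 (Actn2, -0.50). The blood marker Gata1 had 74.9 to 147 normalised counts in WT, 6.16 to 6.31 in KO4 and 643 to 671 in KO8. The part of cell composition in these values was not tested.

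**Figure D3:**
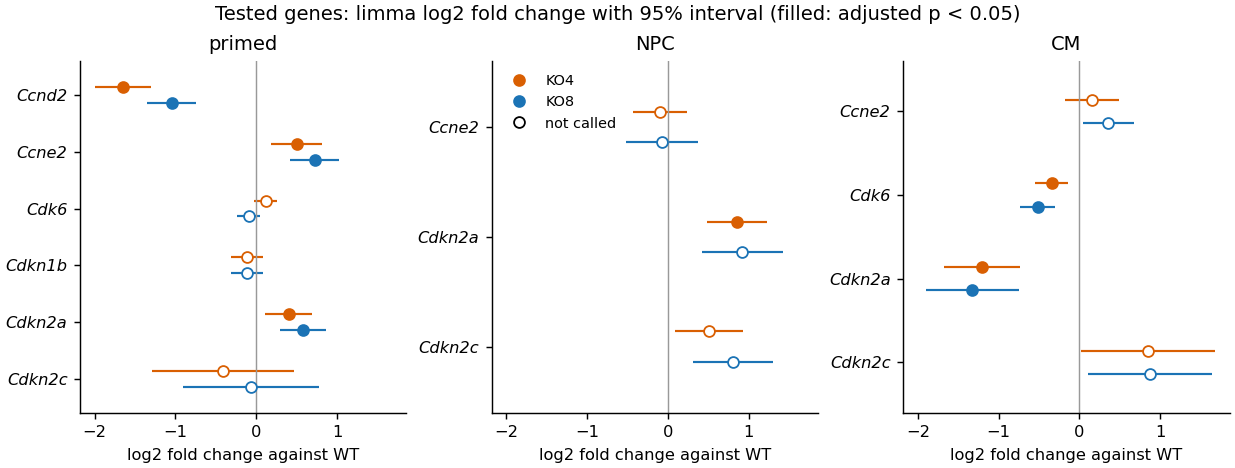
Log2 fold change of KO4 and KO8 against WT for the genes tested at each stage, with 95% intervals from limma and filled points where the adjusted p was under 0.05. Ccnd2 falls in primed cells, and Cdkn2a lies above 0 in primed and NPC and below 0 in CM cultures.

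For Cdkn2a the change of direction was tested directly, as the clone effect at one stage minus that at another. In KO4 the effect in CM cultures was lower than in primed cells by 1.63 on the log2 scale (-1.63 ± 0.30, adjusted p = 0.000645), and in KO8 it was -1.93 ± 0.30 (adjusted p = 0.000887). The effect in NPC cultures exceeded that in CM cultures by 2.04 ± 0.31 in KO4 (adjusted p = 6.34e-05) and by 2.25 ± 0.31 in KO8 (adjusted p = 6.79e-05). NPC and primed effects were not called different (0.40 ± 0.29 and 0.32 ± 0.28, adjusted p = 0.605 and 0.681). Over all genes the share called for CM against primed was 27.2% in KO4 and 6.05% in KO8, for NPC against CM 33.7% and 17.1%, and for NPC against primed 0.625% and 1.48%. Since both clones were set against the same WT libraries, their values are not independent of each other. No such difference was called for Ccne2 or Cdkn2c. The largest of theirs in size was that of Cdkn2c in KO4, CM over primed, at 1.23 ± 0.52 (adjusted p = 0.0897), which was called in 3 of 8 other settings, all with limma on log2(normalised count + pseudocount) (lowest adjusted p = 0.0263). That of Ccne2 in KO8, NPC over primed (-0.82 ± 0.24, adjusted p = 0.107), was called in 2 of 8 settings, both of that kind (lowest adjusted p = 0.0312), and without NPC KO8 library 1 (-1.0, adjusted p = 0.0147).

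Cdkn2b, which encodes the related inhibitor p15Ink4b, lies beside Cdkn2a at chr4:88952198-88956941 on the same strand. In CM cultures it had 484 and 366 normalised counts in WT, 147 and 142 in KO4, and 114 and 155 in KO8. It fell by 1.54 ± 0.20 in KO4 (adjusted p = 7.35e-05) and by 1.68 ± 0.21 in KO8 (adjusted p = 0.00022) on the log2 scale. In primed cells its libraries overlapped (42.8 and 52.9 in WT, 65.1 and 48.2 in KO4, 37.3 and 57.1 in KO8), and in NPC cultures it had 99.4 and 100 in WT, 66.6 and 77.2 in KO4, and 109 and 117 in KO8, without a call in either clone.

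Since these neighbours moved together in CM cultures, their starts are shown, from 250 bases before to 50 bases after each RefSeq start on GRCm38.p6 (not the build of the tables), all on the minus strand. The first is the downstream start of Cdkn2a (chr4:89282143-89282442), the next its upstream start (chr4:89294570-89294869) and the last that of Cdkn2b (chr4:89310983-89311282). They were chosen after the CM values were known. Capitals mark TTTNNCGC, a form of the E2F motif, searched on both strands.
Cdkn2a downstream start: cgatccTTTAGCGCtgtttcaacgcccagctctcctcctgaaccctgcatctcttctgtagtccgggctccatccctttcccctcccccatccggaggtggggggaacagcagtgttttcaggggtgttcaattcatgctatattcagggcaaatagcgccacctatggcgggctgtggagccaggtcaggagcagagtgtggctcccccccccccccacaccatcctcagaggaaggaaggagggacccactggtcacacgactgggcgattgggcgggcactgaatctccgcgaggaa
Cdkn2a upstream start: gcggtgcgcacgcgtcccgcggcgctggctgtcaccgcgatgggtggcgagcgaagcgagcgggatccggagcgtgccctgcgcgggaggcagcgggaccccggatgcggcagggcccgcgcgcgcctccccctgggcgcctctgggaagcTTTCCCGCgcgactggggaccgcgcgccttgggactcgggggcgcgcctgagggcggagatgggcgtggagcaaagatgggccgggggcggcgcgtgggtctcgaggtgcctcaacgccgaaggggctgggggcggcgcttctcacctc
Cdkn2b: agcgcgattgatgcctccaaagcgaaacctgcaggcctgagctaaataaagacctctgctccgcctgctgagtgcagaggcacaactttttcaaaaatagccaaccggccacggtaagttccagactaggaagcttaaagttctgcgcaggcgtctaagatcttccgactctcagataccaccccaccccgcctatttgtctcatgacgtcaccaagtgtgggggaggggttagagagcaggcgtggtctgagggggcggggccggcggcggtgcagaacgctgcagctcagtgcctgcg

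The motif stands 244 bases before the downstream start of Cdkn2a and 99 bases before the upstream start, and these letters are not in the window of Cdkn2b. It was 1 of 9 motifs searched and was chosen for display after its matches were seen. RefSeq held 10 starts for 7 of the 10 members (not Ccnd1, Ccnd2 and Ccne2). TTTNNCGC was found at 3 of these 10 (both of Cdkn2a and that of Cdk6), and at 5.17% of all 32851 starts. Its narrower form TTTCCCGC was at 1 (1.07% of all starts), and TTTGGCGC (0.514%), TTTGGCGG (0.56%), TTTCGCGC (0.323%), TTCCCGCC (2.19%) and TGACGTCA (1.79%) were at none. CACGTG was at 3 (7.15%) and GGGCGG at 8 (35.7%). A match is a description of the letters only.

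For the abundant genes in CM cultures, the base means of the tables set a bound between the clones. As both tables share the WT libraries, the clone with the higher base mean exceeds the other by at least the ratio of the base means. This holds on the size factors of the tables, whose shared WT scale varied by up to 0.490%. Another scaling can shift the bounds: with upper-quartile scaling the log2 difference of Cdk6 between the clones went from 0.17 to 0.30. On this basis Ccnd1 was at least 1.66-fold higher in KO4 than in KO8 (base means 2291 and 1379) and Ccne1 at least 1.65-fold higher (1651 and 1003). The opposite held for Ccnd3, at least 1.36-fold higher in KO8 (4239 and 5758), and for Cdkn1b, at least 1.29-fold higher in KO8 (983 and 1264). Ccnd2 was at least 1.18-fold higher in KO8 and Cdk4 at least 1.09-fold higher in KO4. These bounds carry no error or test. Stem cell markers moved apart between the clones as well: Nanog (1.61 in KO4 and -1.46 in KO8 against WT, log2), Zfp42 (1.82 and -2.14), Esrrb (1.34 and -1.95) and Pou3f1 (2.21 and -0.97) were called in opposite directions, as was Tbx3 the other way round (-1.14 and 1.27). The part of these markers in the ratios was not tested. A ratio of at least 5 to 4 was seen for 4 of 9 members in CM cultures and for 22.3% of all genes at a base mean of 100 or more, and ratios as far as those of Ccnd1 and Ccne1 for 5.52% and 5.75%. Ratios as far as those of Ccnd3, Cdkn1b, Ccnd2 and Cdk4 were common, at 14.2%, 19%, 33% and 58.3% of these genes.

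Cdkn1b had 2 possible sets of counts in CM cultures under the settings used. Earlier settings gave 1, 4 and 3 sets, so the number depends on them. In the first it had 1069 and 1076 normalised counts in WT, 891 and 897 in KO4, and 1495 and 1418 in KO8, and in the other 1118 and 859, 757 and 1198, and 1731 and 1350. In both of these sets the KO8 libraries lay above WT, and only in the first did KO4 lie wholly below it. Of the tested members, none was called between the clones in CM cultures, where 57.7% of all genes were. The difference nearest to the threshold was that of Cdk6 (0.17 ± 0.09, adjusted p = 0.0961), which was called with upper-quartile scaling (0.30, adjusted p = 0.00734) and with scaling by total count (0.24, adjusted p = 0.0278). That of Cdkn2a was 0.12 ± 0.27, with an interval from -0.45 to 0.70.

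At the other stages no member with a base mean from 100 upwards reached 5 to 4, against 1.63% of all genes in naive cells, 0.419% in primed cells and 4.05% in NPC cultures. In naive cells the widest were Ccnd1, 1.12-fold higher in the KO4 table, followed by Cdk6 (base means 1600 in the KO4 and 1458 in the KO8 table) and Cdkn2a (698 and 764). Of all genes, 8.6%, 12.2% and 12.7% had ratios as far as these. In NPC cultures Cdk6 was 1.18-fold higher in the KO4 table, and Ccne1 1.15-fold and Cdkn2c 1.14-fold higher in the KO8 table, with 7.46%, 9.82% and 11.2% of all genes as far.

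**Figure D4:**
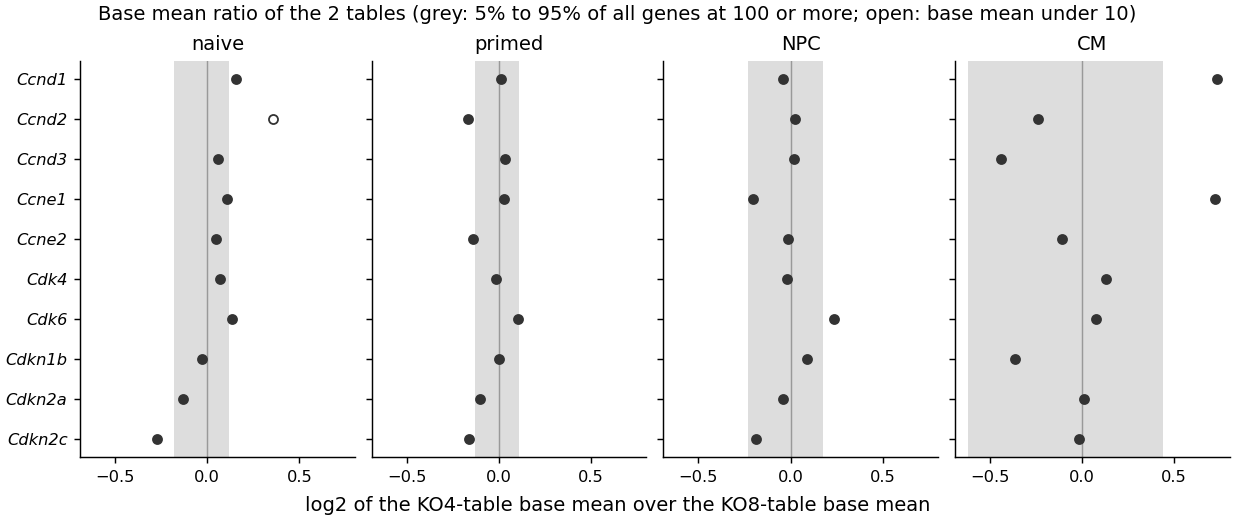
Log2 ratio of the base mean in the KO4 table over that in the KO8 table for the 10 genes at each stage, with grey bands from the 5th to the 95th percentile of all genes at base means of 100 or more. In CM cultures Ccnd1 and Ccne1 lie above the band and Ccnd3 below 0 within it, and open points have a base mean under 10.

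Finally, 40 other genes of the G1/S pathway (39 of them in the tables) and 16 targets of E2F were counted. In primed cells 15 pathway genes were tested, of which 2 rose in KO4, and 1 rose and 1 fell in KO8, none in both clones, beside 20% and 16.4% of all genes called in either direction. In NPC cultures 2 of 19 rose and 2 fell in KO4, and 1 of 18 rose in KO8, beside 17.7% and 2.8% of all genes. The last was Fbxo31, which rose in both clones, an F-box protein that targets cyclin D1, with 0.63 ± 0.09 in KO4 (adjusted p = 6.65e-06) and 0.63 ± 0.10 in KO8 (adjusted p = 0.0343). In CM cultures 4 of 15 rose and 5 fell in KO4, and 5 rose and 2 fell in KO8, beside 53% and 25.3% of all genes called, and 12.4% called in both clones with the same sign. Besides Cdkn2b, the genes called in both clones were Fbxo31 (0.85 ± 0.10 and 0.59 ± 0.10, adjusted p = 4.60e-05 and 0.00164), the activator E2f1 (0.72 ± 0.10 and 0.62 ± 0.11, adjusted p = 0.000156 and 0.00149) and E2f2 (0.89 ± 0.18 and 0.92 ± 0.17, adjusted p = 0.00141 and 0.00248). E2f1 had 462 and 506 normalised counts in WT, 791 and 800 in KO4, and 715 and 773 in KO8. Myc, named here after its values were seen, went opposite ways, with -0.39 ± 0.10 in KO4 (adjusted p = 0.00573) and 0.31 ± 0.09 in KO8 (adjusted p = 0.0281). The median log2 fold change of the pathway genes in CM cultures was -0.14 in KO4 and 0.27 in KO8, beside -0.04 and -0.01 over all genes.

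Most E2F targets were too abundant to be solved. None was tested in primed cells. In NPC cultures 4 were tested and none was called in either clone. In CM cultures, where 12.4% of all genes were called in both clones with the same sign, 2 were tested, Tk1 and Chek1, and both rose in both clones, with a median log2 fold change of 0.92 in KO4 and 0.46 in KO8. The base mean was higher in the KO4 table for 16 of 16 targets in CM cultures (1.09 to 1.61 times, median 1.23) and for 15 of 16 in naive cells (median 1.03), but for 2 of 16 in NPC cultures (median 0.962) and 9 of 16 in primed cells (median 1.01). Over all genes at 100 or more the median ratio lay between 0.997 and 1.00.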

How the data were processed

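The series holds 27 mRNA-seq libraries in 12 groups, mapped from their titles. Per the labels and the methods of the study, the authors trimmed reads with Trim Galore 0.6.7, aligned them to mm9 with HISAT2 2.2, counted them with featureCounts (strand setting not given in the sources used here) and ran DESeq2 1.46.0 for each clone and stage. Overlapping genes (Oraov1 with Ccnd1, 9330179D12Rik with Ccnd2, Bysl with Ccnd3, Ints8 with Ccne2, Tspan31 with Cdk4 and Gm17590 with Cdk6) may share reads. From the 8 deposited tables, whose fold changes, standard errors, Wald statistics and p-values are the authors' own comparisons and were not used, only the base mean was read, a signal the authors computed as the mean normalised count over the libraries compared. No other per-sample column was present.

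Size factors were read from genes with 1 read in 1 library, and whole counts were solved jointly from both tables of a stage, up to a base mean of about 1000 (40 in naive cells). A gene was kept where exactly 1 solution lay within the rounding and a limit on replicate spread. Kept genes therefore favour close replicates, and standard errors may be understated. The solver was revised on these data 3 times, once to seek a single solution for Ccnd1 in NPC cultures, which it did not give. Genes solved in an earlier version and in the version used had the same counts. As all versions solve the same base means, this cannot reveal wrong counts. In CM cultures 20322 of the 20459 genes solved in the first version were also solved in the version used, and in NPC cultures 20196 of 20244. Among those that were not is Cdkn1b in CM cultures, which had a single solution in the first version. In simulation, wrong counts were found for 2 of 19071 solved genes in NPC cultures and 0 at the other stages.

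Counts were tested with limma 3.58.1 (voom, R 4.3.3) on the groups compared, for genes with a mean normalised count of at least 10, with Benjamini-Hochberg adjustment over all genes tested and a threshold of 0.05. Simulated log2 changes of 1 were recovered for 95.7% (KO4) and 96.7% (KO8) of the tested changed genes in primed cells and 90.7% and 93.0% in CM cultures, and log2 changes of 0.5 for 73% and 74%, and 33.0% and 28.7%. With only 100 genes changed at each size, these shares do not give the power of the real tests. Stages were compared in 1 fit over 18 libraries instead of the 27 planned, because naive counts could not be solved for most genes. Python 3.11.15 was used for the rest. The members, gene lists and tests were chosen with earlier results of these data known. Named pathway genes were those that both clones called with the same sign. A listed marker gene is not reported here and was kept out of the marker sums.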

Additional observations from a re-analysis of the deposited data

Results flagged for a closer look

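The effect of the clones on Cdkn2a differed between stages by a test of the difference itself. CM minus primed was -1.63 in KO4 and -1.93 in KO8, and NPC minus CM was 2.04 in KO4 and 2.25 in KO8 (log2, limma). All 4 differences were called under the 8 alternative settings tried and without each of the 18 libraries in turn. In CM cultures of KO4 the cardiac and neural markers also differed from WT, which was not tested as a part of these values.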

How the results depend on the processing

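No paired analysis was possible because the counts solved from the base means carry a group but no replicate number of the labels. Of 562 values of members under other settings, 534 kept their direction and their side of the threshold, 8 lost and 13 gained a call, and 7 changed sign. Without single libraries, 605 of 642 did, with 15 calls lost, 6 gained and 16 changes of sign. None of the values that changed sign was called under either setting. With upper-quartile scaling and scaling by total count these were Ccne2 in NPC (0.001789 and 0.001445) and Cdkn2c in CM (0.09685 and 0.03741), both KO4 against KO8, with upper-quartile scaling the WT differences from primed of Ccne2 in NPC (-0.2118) and Cdkn2a in CM (-0.17), and with limma on log2(normalised count + 5) the NPC minus CM effect in KO8 on Cdkn2c (0.006161). Without single libraries, KO8 against WT ranged from -0.255 to 0.1072 for Cdkn2c in primed cells and -0.2304 to 0.07484 for Ccne2 in NPC. KO4 against KO8 ranged from -0.03837 to 0.05152 for Cdkn1b in primed cells, -0.1734 to 0.1318 for Ccne2 and -0.2059 to 0.07011 for Cdkn2a in NPC, and -0.3445 to 0.5514 for Cdkn2a and -0.2581 to 0.202 for Cdkn2c in CM. WT differences from primed ranged from -0.193 to 0.2506 for Ccne2 in NPC, and -0.007349 to 0.361 for Cdkn2a and -0.2432 to 0.1425 for Cdkn2c in CM, and the NPC minus CM effect in KO8 on Cdkn2c from -0.245 to 0.1407. Of the losses, Ccne2 (0.50, adjusted p = 0.125) and Cdkn2a (0.40, adjusted p = 0.105) in primed KO4 came without a filter on low counts. On another scale the NPC to primed level of Ccne2 was 0.704. The ratio of 5 to 4 was chosen after the base means were seen, and at 1.1 it was passed by 1, 2, 3 and 5 members (naive, primed, NPC, CM) and at 1.5 by 0, 0, 0 and 2.

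Counts of called genes moved by more than 1.5 times in 21 of 153 cases. Without a filter on low counts, 871 genes were called for KO4 and 159 for KO4 against KO8 in primed cells, and 1 for KO4 against KO8 in NPC cultures. With all genotypes in 1 fit, NPC counts were 440 (KO4), 779 (KO8) and 65 (KO4 against KO8), and the closest of several solutions gave 2 for the last. With limma on log2(normalised count + 1), + 0.5 and + 5, NPC counts were 698, 688 and 706 for KO8 and 18, 5 and 19 for KO4 against KO8, and those for NPC minus primed were 262, 263 and 371 (KO4) and 376, 325 and 565 (KO8). CM minus primed in KO8 gave 853 (+ 1) and 1137 (+ 5). The share of higher calls in primed cells was 42.0% (KO4) and 50.3% (KO8), and 59.8% and 63.4% with upper-quartile scaling, and for CM KO4 against KO8 it went from 45.5% to 55.6%, for CM minus primed in WT from 53.5% to 41.9%, and for the clone effect in KO4 from 44.5% to 59.8% (CM minus primed) and from 58.3% to 39.0% (NPC minus CM).

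Without single libraries the counts ranged, in primed cells, from 1192 to 1344 (KO4), 891 to 1131 (KO8) and 139 to 192 (KO4 against KO8), in NPC cultures from 1122 to 1613, 0 to 2162 and 0 to 2039, and in CM cultures from 3876 to 4907, 1288 to 2944 and 4341 to 5010. WT stages ranged from 5834 to 6772 (NPC minus primed), 5636 to 6554 (CM minus primed) and 4033 to 5257 (NPC minus CM). Clone effects ranged from 11 to 260, 1698 to 2839 and 2292 to 3322 in KO4, and from 25 to 595, 233 to 830 and 944 to 1949 in KO8, in the same order. A group left with 1 library was assumed to vary like the others. The cause of these shifts was not tested.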
